A study of Hydra vulgaris with 36 samples.

Results

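Annexin XII of the freshwater polyp Hydra vulgaris is 1 of the 22608 genes in the count table, chosen by its gene identifier, '100203975' (LOC100203975 in RefSeq, synonyms Annexin-12 and ANXB12). It was followed through 36 RNA-seq libraries in 10 groups. Every animal was wild type, of strain Hm_105, and received 3 electroporations with 1.35 µM small interfering RNA (siRNA), a concentration given for mock samples too. The siRNA was directed at Zic4, at Sp5 or at both, which are transcription factors, or served as a mock. Titles of the mock samples hold G or gfp. Tissue was collected after 7 days and pooled within a sample. A first experiment of 25 libraries divided original tentacles, those at their normal position, into a distal segment towards the tip and a proximal segment towards the mouth. Each segment had 4 mock, 4 Zic4 RNAi and 3 Sp5 RNAi libraries, and 3 further libraries held ectopic tentacles, those that formed elsewhere, of Sp5 RNAi animals. A second experiment of 11 libraries used undivided tentacles. It had 3 mock libraries of original tentacles and, after RNAi of both genes (Zic4/Sp5 RNAi), 4 libraries of original and 4 of ectopic tentacles. The labels do not say whether replicates were separate cultures. The targeted transcripts are not analysed here, so how far each was depleted is not given.

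Annexins are proteins that bind acidic phospholipid membranes when calcium is present, through a conserved repeated domain. Annexin XII is the Hydra member of the family and is used as a marker of battery cells, the ectodermal epithelial cells of the tentacle that enclose nematocytes, the stinging cells, together with nerve cells. Battery cells form from ectodermal cells of the body column that cross the base of the tentacle, stop dividing and are carried towards the tip, where they are shed. The series title places Zic4 in the formation of tentacles and the identity of their epithelium. The comparisons below ask how the transcript of this battery cell marker differed along the tentacle, after each knockdown and in tentacles at other positions.

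The transcript was abundant in all 36 libraries. It received 11060 to 48622 counts, a median of 0.288% and between 0.147% and 0.940% of a library's counts. Library totals ran from 2039364 to 13276051 counts, so the counting error of a single value was only 0.454% to 0.951% and the spread between replicates decided the precision. Levels are CPM, counts relative to the library size, after TMM scaling, which corrects library sizes for differences in composition, and no length correction applies because values of 1 gene are compared between libraries. Over the 36 libraries the level varied 14.3-fold, from 1239 to 17763 CPM. The SD of its log2 CPM was 0.98, larger than that of 78.0% of 8379 genes averaging 10 CPM or more, whose median SD was 0.64.

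The highest levels were in proximal segments of mock tentacles, at 7535, 17763, 16136 and 7315 CPM in replicates 1 to 4, a mean of 12187 ± 5539.5 (SD, n = 4). Proximal segments after Sp5 RNAi followed, with 12576, 7085 and 4976 CPM and a mean of 8212 ± 3924 (SD, n = 3). These 7 libraries held the top of the range almost alone, and within each of the 2 groups the highest library had more than 2 times the level of the lowest. Distal segments of mock tentacles had 1964, 3163, 2272 and 7801 CPM, a mean of 3800 ± 2715 (SD, n = 4), in which replicate 4, the shallowest library of the series, stood well above the other 3. No other library outside the 2 proximal groups was higher than 4395 CPM. Most of these high libraries were also shallow. Mock proximal replicates 1 and 3, all Sp5 RNAi proximal libraries and mock distal replicate 4 had 2039364 to 3219383 counts. Every other library had 5020938 or more, among them mock proximal replicates 2 and 4 (5192502 and 8789109). All libraries of the 2 proximal groups and mock distal replicate 4 had 8243 to 11966 genes with at least 10 counts. The rest had 12060 or more. The part of depth in these levels was not tested.

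The other groups were lower and most were tighter. Ectopic tentacles of Sp5 RNAi animals had 3372, 3333 and 3610 CPM, a mean of 3438 ± 150.3 (SD, n = 3). Proximal segments after Zic4 RNAi had 2973, 2982, 3048 and 3826 CPM, a mean of 3207 ± 414 (SD, n = 4). No library of this group reached any mock proximal library. Whole mock tentacles of the second experiment had 2786, 2724 and 2806 CPM, a mean of 2772 ± 42.5 (SD, n = 3), which was the narrowest spread of all groups. That mean was below those of both mock segments of the first experiment, also with library totals (2804 against 3796 and 7401 CPM). The libraries lay within the range of mock distal segments. A whole tentacle holds both segments, so this mismatch limits the order of groups across experiments, and its cause was not tested. Distal segments after Zic4 RNAi had 2782, 2278, 1613 and 4395 CPM, a mean of 2767 ± 1186.5 (SD, n = 4).

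The lowest means were in the double knockdown and in distal segments after Sp5 RNAi. Original tentacles after Zic4/Sp5 RNAi had 1725, 1746, 2104 and 2091 CPM, a mean of 1917 ± 209 (SD, n = 4), and ectopic tentacles of the same treatment had 2105, 2087, 1764 and 1239 CPM, a mean of 1799 ± 405 (SD, n = 4). Distal segments after Sp5 RNAi had 1552, 1415 and 1621 CPM, a mean of 1529 ± 105.3 (SD, n = 3). In this order of 10 means, from mock proximal segments down to Sp5 RNAi distal segments, the ranges of neighbouring groups overlapped at every step except 1, between Zic4 RNAi proximal segments and whole mock tentacles, which belong to different experiments. The order of neighbours is therefore not set beyond the spread between replicates. Mock distal segments overlapped even the Zic4/Sp5 RNAi groups near the end of the order. The proximal segments of mock and of Sp5 RNAi animals overlapped no group below mock distal segments.

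**Figure D1:**
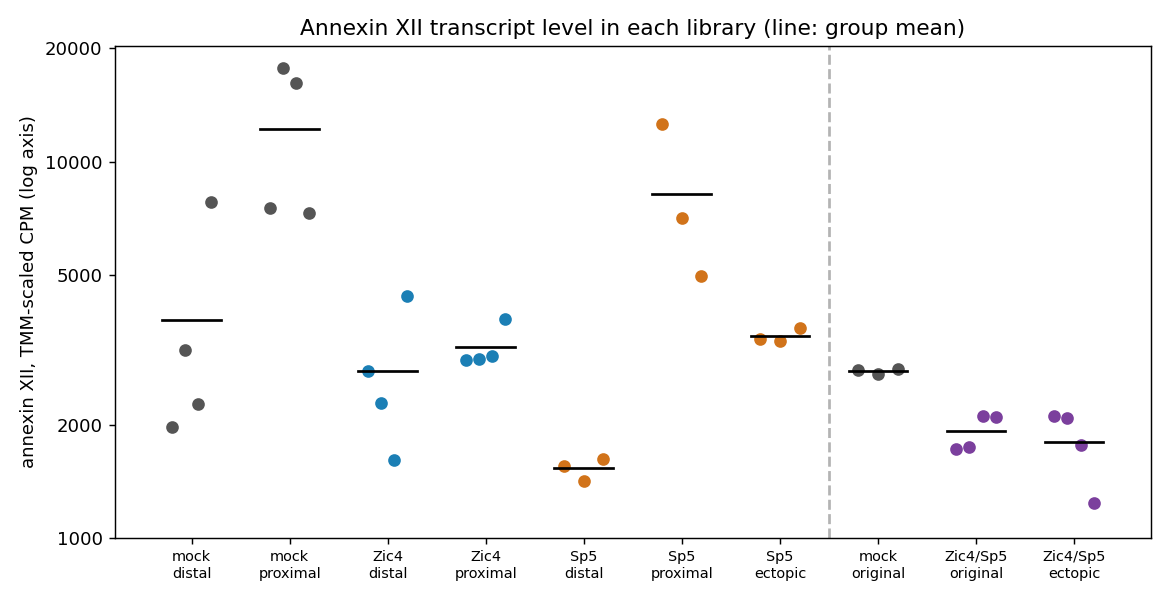
Annexin XII level in each of the 36 libraries on a log axis, in TMM-scaled CPM, by treatment and tissue, with replicates of a group from left to right and a line at the group mean; the dashed line separates the 2 experiments. The mock proximal libraries sit between 7315 and 17763 CPM, above all Zic4 RNAi libraries and above all libraries of the second experiment.

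Along the mock tentacle, annexin XII was lower in distal than in proximal segments. The log2 difference was -1.70 with a standard error of 0.40 and a 95% interval of -2.52 to -0.87, a 3.24-fold lower level (edgeR quasi-likelihood test, adjusted p 0.00284). Here 29.5% of 14332 genes were called in either direction at an adjusted p under 0.05, 13.6% of all genes lower in distal segments, and 5.63% of genes had a lower log2 difference than annexin XII, against a median of 0.03 over all genes. The groups overlapped through distal replicate 4, whose 7801 CPM exceeded the 2 lower proximal libraries. Without that library the difference was -2.36 (adjusted p 6.40e-05). As a share of total counts, with no TMM scaling, the segments had 0.380% ± 0.231 (SD, n = 4) in distal and 0.740% ± 0.230 (SD, n = 4) in proximal libraries, and the log2 difference was -0.96 (edgeR adjusted p 0.0126).

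The same gradient was present after Sp5 RNAi and was not detected after Zic4 RNAi. In Sp5 RNAi animals all 3 distal libraries lay below all 3 proximal libraries, and the log2 difference was -2.48 (SE 0.48, 95% interval -3.45 to -1.5, edgeR adjusted p 0.00111), a 5.56-fold lower level, where 22.7% of genes were called in either direction. In Zic4 RNAi animals the ranges of the segments overlapped and the log2 difference was -0.26 (SE 0.39, 95% interval -1.06 to 0.54, edgeR adjusted p 0.755). There 5.76% of genes were called. The central value in mock, -1.70, lies outside this interval, but the 95% interval in mock (-2.52 to -0.87) overlaps it.

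Whether the gradients differed between treatments was tested with interaction terms, none of which passed the threshold over all genes. The Zic4 RNAi gradient differed from that of mock by 1.44 (SE 0.55, 95% interval 0.30 to 2.58, edgeR adjusted p 0.139, with 3.80% of genes called), and it depended on the libraries and the scaling. It was 2.10 (edgeR adjusted p 0.00816) without mock distal replicate 4, 0.69 (0.265) without TMM and 0.064 (0.983) with the share of the 10 most abundant genes as a covariate. The Sp5 RNAi gradient differed from that of mock by -0.78 (SE 0.60, 95% interval -2.01 to 0.45, edgeR adjusted p 0.716), and by -0.12 without mock distal replicate 4 and -0.30 without Sp5 proximal replicate 1. Between Sp5 RNAi and Zic4 RNAi, a comparison added after the levels were seen, the gradients differed by -2.21 (SE 0.60, 95% interval -3.45 to -0.97, edgeR adjusted p 0.154). In each of the latter 2 terms only 2 genes, or 0.0140% of those tested, were called. The Sp5 against Zic4 difference passed with DESeq2 (-2.22, adjusted p 0.0337) and in a fit of the 4 groups alone (-2.25, edgeR adjusted p 0.0428), and was -1.45 (edgeR adjusted p 0.306) with the same covariate.

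Zic4 RNAi was compared with mock within each segment. In proximal segments annexin XII fell by 1.94 on the log2 scale (SE 0.40, 95% interval -2.77 to -1.11, edgeR adjusted p 0.000790), 3.84-fold, and the 4 libraries at 2973 to 3826 CPM did not overlap the mock libraries at 7315 to 17763 CPM. With 33.3% of all genes tested called in this comparison, and 15.6% of all genes tested called lower, a call by itself was common, and 2.46% of genes had a lower log2 fold change than annexin XII. With library totals and no TMM the fall was smaller, at -1.05 on the log2 scale (edgeR adjusted p 0.00723), and the groups still did not overlap. In distal segments the log2 fold change was -0.51 (SE 0.39, 95% interval -1.31 to 0.30, edgeR adjusted p 0.614, 3.64% of genes called). Replicate 4 was the highest library in both distal groups, and without mock distal replicate 4 the value was 0.16 (adjusted p 0.965).

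Sp5 RNAi against mock passed the threshold in neither segment. In distal segments the 3 libraries at 1415 to 1621 CPM lay below all 4 mock libraries, whose lowest was 1964 CPM. The log2 fold change was -1.36 (SE 0.44, 95% interval -2.26 to -0.46, edgeR adjusted p 0.109, where 2.29% of genes were called). It passed with DESeq2 (adjusted p 0.0451) and without mock distal replicate 1 (edgeR adjusted p 0.0444), and was -0.70 without mock distal replicate 4. In proximal segments the ranges overlapped and the value was -0.58 (SE 0.43, 95% interval -1.45 to 0.30, edgeR adjusted p 0.460, 6.68% of genes called). It was -0.07 without TMM and lay between -1.05, without Sp5 proximal replicate 1, and -0.31, without Sp5 proximal replicate 3. Both Zic4 and Sp5 RNAi share the mock libraries of a segment, so these values are not independent of each other.

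The knockdowns were also set directly against each other. In proximal segments annexin XII was at 4976 to 12576 CPM after Sp5 RNAi and at 2973 to 3826 CPM after Zic4 RNAi, with no overlap. The log2 difference of 1.36 (SE 0.42, 95% interval 0.50 to 2.23) had an edgeR adjusted p of 0.0634, where 3.67% of genes were called. It passed with DESeq2 (0.0253), in a fit of the 2 groups alone (0.0284) and without Sp5 proximal replicate 3 (0.0314). It was 0.89 (edgeR adjusted p 0.345) without Sp5 proximal replicate 1 and 0.63 (0.449) with the composition covariate. In distal segments Sp5 RNAi minus Zic4 RNAi was -0.85 (SE 0.43, 95% interval -1.74 to 0.03, edgeR adjusted p 0.473, 0.314% of genes called), and the ranges overlapped at about 1613 CPM.

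**Figure D2:**
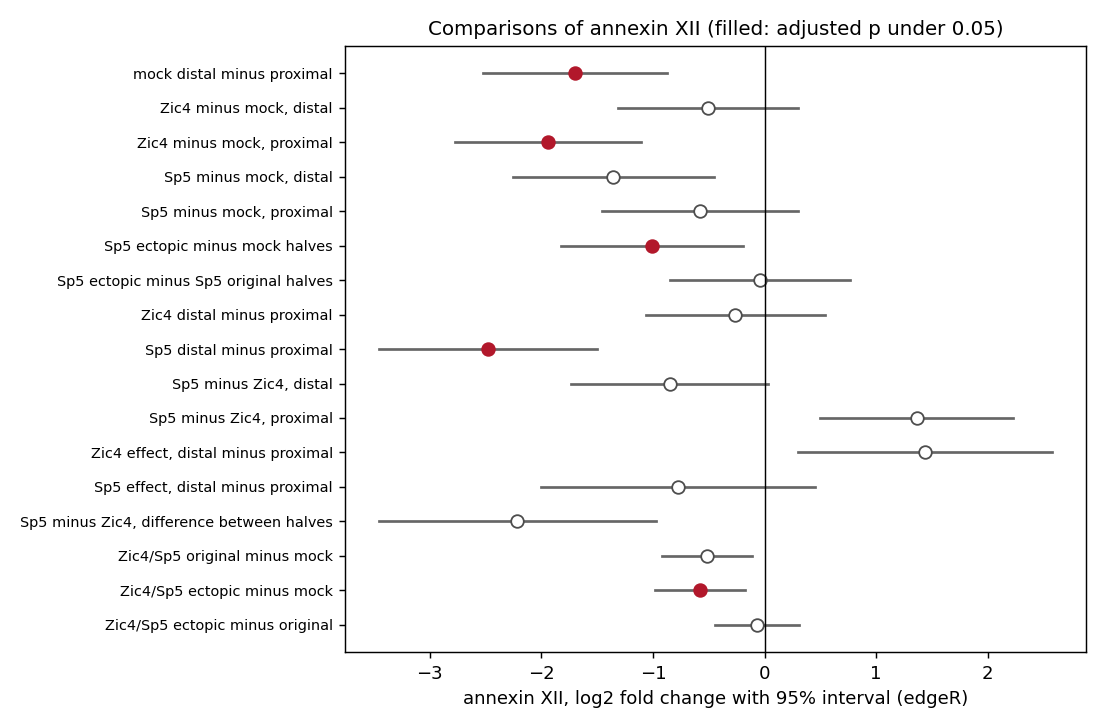
Log2 fold change of annexin XII with its 95% interval in 17 comparisons (edgeR), with filled points where the adjusted p was under 0.05. The called comparisons lie between -2.48, distal minus proximal after Sp5 RNAi, and -0.58, ectopic tentacles of Zic4/Sp5 RNAi animals minus mock.

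Ectopic tentacles had a substantial level of annexin XII transcript. In Sp5 RNAi animals their 3333 to 3610 CPM lay between the distal and the proximal segments of original tentacles of the same treatment. Against the mean log2 level of those segments the difference was -0.04 (SE 0.39, 95% interval -0.84 to 0.76, edgeR adjusted p 0.956), where 27.3% of genes were called. Those segments had means of 1529 CPM (distal) and 8212 CPM (proximal). Averaging on the log2 scale sets a lower reference than averaging CPM, so equality with a whole original tentacle is not shown. Against the mean log2 level of mock segments, averaged in the same way, the difference was -1.01 (SE 0.40, 95% interval -1.82 to -0.19, edgeR adjusted p 0.0486), with 35.7% of genes called. That call was at the threshold: it was lost without any of the 3 ectopic libraries, without mock proximal replicate 2 or 3 and without mock distal replicate 4 (edgeR adjusted p 0.0665 to 0.135).

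In the second experiment the standard errors were smaller and the mock replicates closer than in the first. Original tentacles of Zic4/Sp5 RNAi animals, at 1725 to 2104 CPM, all lay below the mock libraries at 2724 to 2806 CPM. The log2 fold change was -0.51 (SE 0.18, 95% interval -0.92 to -0.11), with an edgeR adjusted p of 0.132 where 4.39% of genes were called. Ectopic tentacles, at 1239 to 2105 CPM, also lay below every mock library, with a fall of 0.58 on the log2 scale (SE 0.18, 95% interval -0.98 to -0.18, edgeR adjusted p 0.0360, 30.0% of genes called), 1.49-fold. The call was lost without any 1 of the 3 mock libraries and without ectopic replicate 3 or 4 (edgeR adjusted p 0.0630 to 0.0992). Both comparisons use the same 3 mock libraries.

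Between ectopic and original tentacles after Zic4/Sp5 RNAi, annexin XII levels overlapped. The log2 difference was -0.07 (SE 0.17, 95% interval -0.44 to 0.31, edgeR adjusted p 0.847), and 0 genes (0%) were called by edgeR in this comparison, against 1300 with DESeq2. The absence of calls depended on original replicate 4. Without it edgeR called 2037 of 14653 genes, and annexin XII was at -0.0075 (edgeR adjusted p 0.983). In that library Alx was at 16.8 CPM, within the 8.68 to 21.1 CPM of ectopic libraries. The other original libraries had 58.1 to 77.2 CPM. In bulk tissue, fewer battery cells and less transcript per cell cannot be told apart, for annexin XII or for any other marker.

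Other genes known from tentacle epithelium, Alx, hywnt5a and hywnt8, were set beside annexin XII. Alx encodes an aristaless-related homeobox factor expressed where tentacles form, and hywnt5a and hywnt8 encode Wnt ligands of tentacle development. Their patterns were not that of annexin XII. In mock tentacles hywnt5a was higher in distal segments, with 327 ± 66.0 against 112 ± 33.5 CPM (SD, n = 4 each), opposite in direction to annexin XII, and Alx was lower there, with 36.9 ± 13.2 against 74.5 ± 15.6 CPM (SD, n = 4 each). hywnt8 had 76.7 ± 23.0 in distal and 52.2 ± 17.1 CPM in proximal segments (SD, n = 4 each, edgeR adjusted p 0.228). With library totals and no TMM the call of Alx was lost (log2 -0.38, edgeR adjusted p 0.363) and hywnt8 passed (1.30, edgeR adjusted p 0.00120).

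In ectopic tentacles the values of the markers also differed in size. In those of Sp5 RNAi animals all 4 genes were called lower than in mock segments, where 16.8% of genes were lower and 18.9% higher, but Alx was at 6.32 ± 0.244 CPM (SD, n = 3), with a log2 value of -3.06 (edgeR adjusted p 1.90e-07), hywnt8 had -1.53 (edgeR adjusted p 0.000716) and hywnt5a -1.04 (edgeR adjusted p 0.00122), beside -1.01 for annexin XII. In the second experiment Alx had 106 ± 19.0 CPM in mock (SD, n = 3) and 16.4 ± 5.37 CPM in ectopic tentacles (SD, n = 4), with a log2 value of -2.64 (edgeR adjusted p 0.00298), beside -0.58 for annexin XII. There 3 of the 4 genes were called lower, where 15.0% of genes were called in each direction, with hywnt8 at -0.18 (edgeR adjusted p 0.647). The count was 1 to 3 when 1 library was left out. After Zic4 RNAi in proximal segments 1 of the 4 genes, annexin XII, was called, where 15.6% of all genes tested were called lower. Alx was at -0.61 (edgeR adjusted p 0.116), hywnt8 at -0.27 (edgeR adjusted p 0.537) and hywnt5a at -0.33 (edgeR adjusted p 0.293). With 4 genes this count cannot be told from that share, and differences between genes were not tested.

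**Figure D3:**
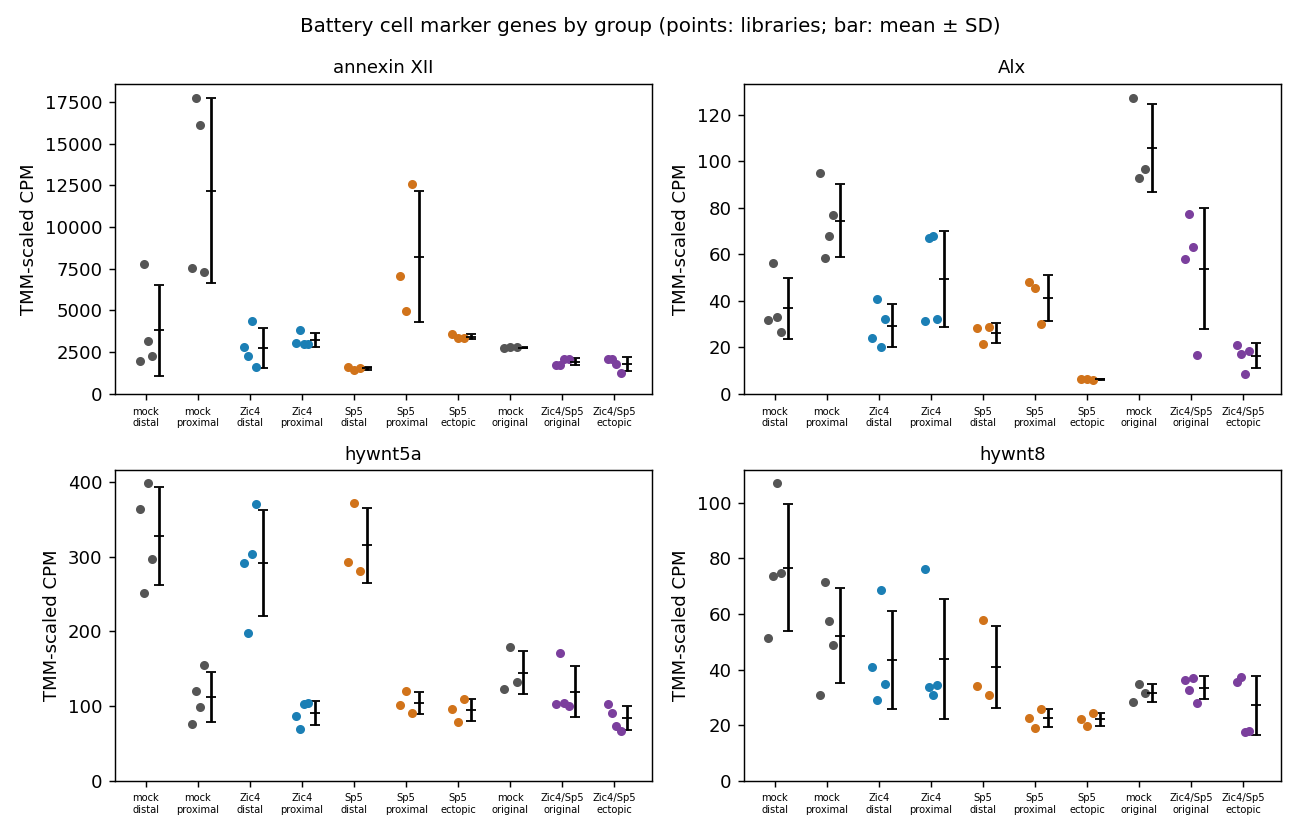
Levels of annexin XII, Alx, hywnt5a and hywnt8 in TMM-scaled CPM by group, with points for libraries and bars for the mean ± SD; each panel has its own axis from 0. In ectopic tentacles of Sp5 RNAi animals Alx is at 6.32 CPM and annexin XII at 3438 CPM, both called lower than in mock segments. The level of hywnt5a is highest in distal segments.

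Markers of other cells differed in several comparisons in which annexin XII was called. Along the mock tentacle, where 13.6% of genes were called lower in distal segments, 1 of 8 nematocyte genes, nb012 (log2 -1.79, edgeR adjusted p 0.0114), and 2 of 6 head organizer genes tested, Wnt3a (-2.08, 0.00730) and hywnt7 (-4.65, 0.00996), were called lower and none higher. After Zic4 RNAi in proximal segments, where 33.3% of genes were called, Wnt3a was lower (-2.72, 0.000648), and Bra2 (2.26, 0.00290) and hywnt11 (2.26, 0.0348) were higher, while 0 of 8 nematocyte genes were called by edgeR, DESeq2 or limma voom, and 0 had an unadjusted edgeR p under 0.05. The summed head organizer level was 39.8 to 73.9 CPM in mock proximal, 13.2 to 21.4 CPM in mock distal and 52.9 to 76.0 CPM in Zic4 RNAi proximal segments. The 8 matched nematocyte genes, which include nowa and the nematogalectins of the capsule and nb001, a nematoblast gene, summed to 577 to 6915 CPM in ectopic tentacles of Sp5 RNAi animals and to 23.4 to 338 CPM in mock segments, and all 8 were called higher, where 18.9% of all genes were. In the second experiment 5 of 8 were called higher in ectopic tentacles, where 15.0% of all genes were, with sums of 578 to 6242 CPM against 29.9 to 99.5 CPM in mock, and the count was 0 to 5 when 1 library was left out. Of the head organizer genes, 3 of 6 tested were called higher and 1 lower in ectopic tentacles of Sp5 RNAi animals (18.9% and 16.8% of all genes), and 6 of 10 higher in those of Zic4/Sp5 RNAi animals (15.0% of all genes), which became 1 without any of the 3 mock libraries and 0 with limma voom. CnNK-2, a homeobox gene of the basal disk, was called higher in both but stayed at 0.623 to 4.23 CPM there, and 0 to 0.764 CPM in mock libraries. The stem cell gene piwil1 was called higher in ectopic tentacles of Zic4/Sp5 RNAi animals (log2 1.01, edgeR adjusted p 0.00510). The part of these cells in the annexin XII values was not tested.

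The composition of the libraries also moved with annexin XII. The 10 most abundant genes took 17.2% to 23.1% of the counts in the 4 mock proximal libraries and 9.24% to 17.7% in the other 32, and mock distal replicate 4, the highest distal library, had 17.7%. TMM factors were 0.527 to 0.782 in mock proximal libraries and 0.747 to 1.19 in the others. With this share as a covariate, the mock gradient was -0.35 (edgeR adjusted p 0.675), the Zic4 RNAi change in proximal segments 0.28 (0.876), the ectopic change of Sp5 RNAi animals 0.43 (0.533) and that of Zic4/Sp5 RNAi animals -0.27 (0.718). The distal to proximal difference after Sp5 RNAi was the only one of the 5 calls to pass with the covariate (-1.74, edgeR adjusted p 0.00426). In proximal segments the shares of mock and Zic4 RNAi libraries, at 10.7% to 13.8% in the latter, did not overlap, so treatment and library composition cannot be told apart there. After Sp5 RNAi the shares were 13.42% to 16.17% in proximal and 10.97% to 13.04% in distal libraries. All proximal libraries of that treatment also had lower totals than its distal ones. Ectopic tentacles of Zic4/Sp5 RNAi animals had 9.24% to 11.31%, against 13.92% to 14.73% in whole mock tentacles. Group and composition cannot be told apart in these comparisons either, also where the call passed with the covariate. The heat shock gene hsp70 was also lower in mock distal than in proximal segments (log2 -0.87, edgeR adjusted p 0.0285), and its part in the result was not tested.

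**Figure D4:**
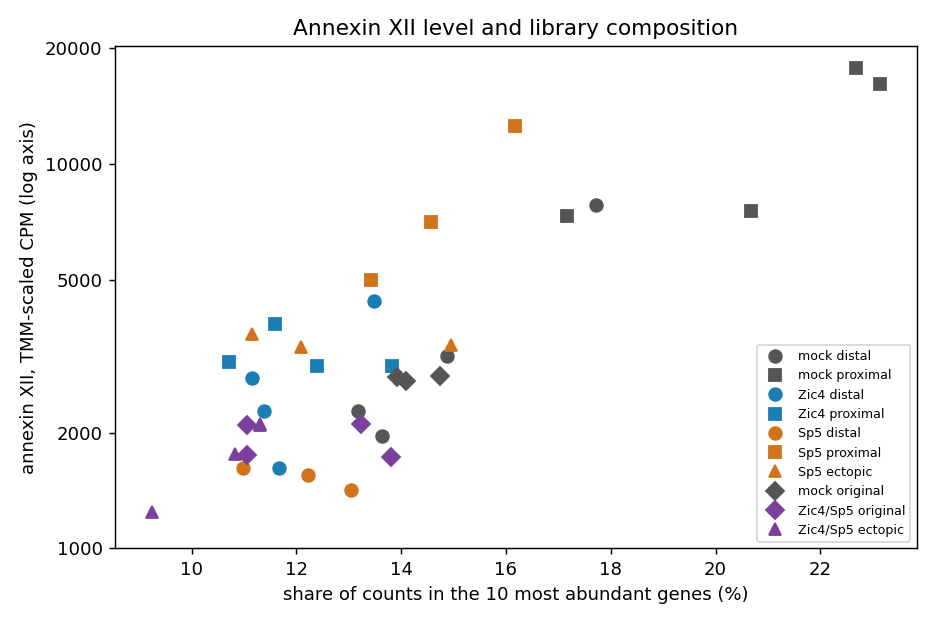
Annexin XII level in TMM-scaled CPM on a log axis against the share of a library's counts in its 10 most abundant genes, in percent, with 1 point per library, colours for treatments and shapes for tissues. The mock proximal libraries lie at 17.2% to 23.1% and 7315 CPM or more; the Sp5 RNAi proximal libraries reach 4976 to 12576 CPM at lower shares.

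The genes whose levels followed annexin XII most closely were found by the Pearson correlation of log2 CPM over all 36 libraries, among 8378 other genes averaging 10 CPM or more, whose median correlation was 0.03. These are descriptions, since libraries share groups and composition. The closest was LOC100192302, with r = 0.977 over 36 libraries, 0.932 over the 11 of the second experiment and 0.947 after group means were subtracted. It had 1652 ± 592 CPM in mock proximal and 613 ± 392 CPM in mock distal segments (SD, n = 4 each), and 1399 ± 656 CPM in proximal and 262 ± 13.9 CPM in distal segments after Sp5 RNAi (SD, n = 3 each). In proximal segments after Zic4 RNAi it had 514 ± 146 CPM (SD, n = 4). The RefSeq table gives it no name, and whether it shares reads with annexin XII is not known from the table.

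The other 5 were LOC100204172 (r = 0.946), LOC100203161 (0.942), az (0.936, synonym OAZM), the gene with identifier 101235550 (0.935) and LOC100206076 (0.934). Their likeness was closer in the first experiment: over its 25 libraries r was 0.932 to 0.970, and over the 11 libraries of the second it was 0.124 to 0.696. The genes most unlike it were LOC101241231 (r = -0.940), LOC100198749 (-0.935) and LOC100200309 (-0.933), which were at 15.9, 9.46 and 6.89 CPM in mock proximal segments and at 77.8, 75.6 and 47.6 CPM in distal segments after Sp5 RNAi. Over the 11 libraries of the second experiment their r was -0.104, -0.707 and -0.714. The tentacle genes Alx, hywnt8 and hywnt5a were not near this list, with r = 0.280, 0.220 and -0.243 over 36 libraries.

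**Figure D5:**
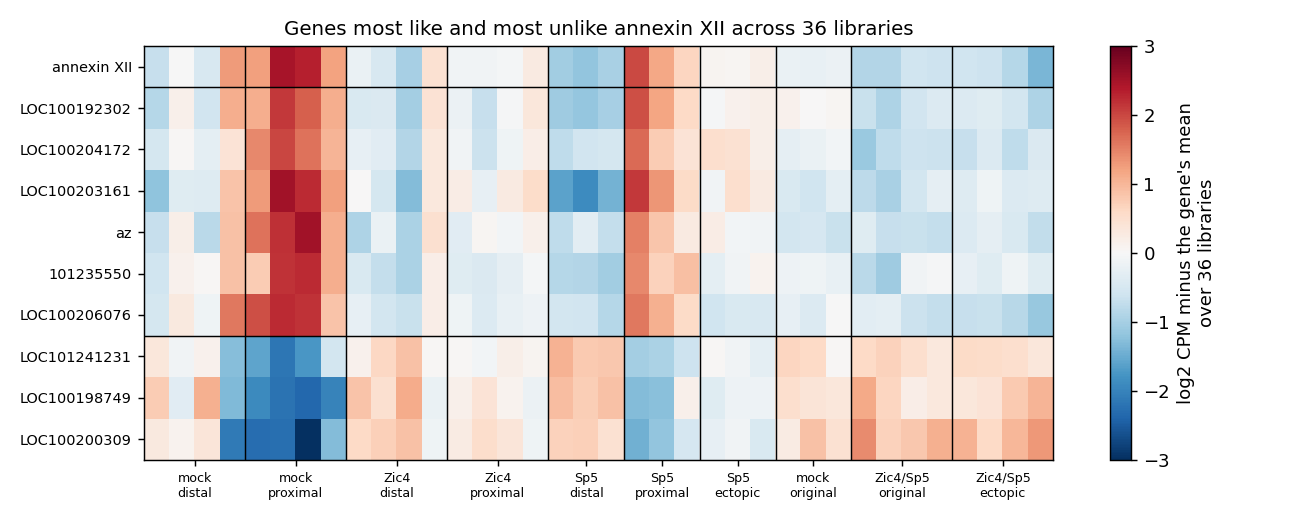
Log2 CPM minus each gene's mean over 36 libraries (colour, log2 units) for annexin XII, the 6 genes most like it and the 3 most unlike it, with libraries ordered by group and then replicate. LOC100192302 follows annexin XII in both experiments. The 3 unlike genes at the bottom are reversed over the 36 libraries, most of all in mock proximal segments, but LOC101241231 is not clearly so within the second experiment.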

How the data were processed

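The deposited table holds raw counts, whole numbers for each gene in each library, and these were used unchanged. STAR 2.5.0 and bcl2fastq are named, without their roles, per the submitters' processing notes. The genome build, the counting program, the strand setting and the handling of multi-mapping reads are not given in the sources used here. Per the labels' protocols, 20 to 30 animals were electroporated per treatment, cDNA was amplified by SmartSeq2 and tagmented with Tn5, and no molecular identifiers are mentioned, so counting errors cover sampling of reads only. Every column was mapped to a sample by its title.

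The counts were fitted in R 4.3.3 with edgeR 4.0.16 (filterByExpr, TMM, robust quasi-likelihood fit, group as the only factor), apart in each experiment, over 14332 and 14826 genes, with Benjamini-Hochberg adjustment and calls at an adjusted p under 0.05. Standard errors come from the F statistic. Levels use TMM factors over all 36 libraries, and log2 CPM a prior count of 2. Alternatives were DESeq2 1.42.0, limma 3.58.1 voom, RLE scaling, no filter, the compared groups alone, a replicate block, the share of the 10 most abundant genes as a covariate, 1 library left out and, added later, no TMM. The scripts were tested on simulated data.

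The gene, the lists and the tests were chosen with earlier results of these data known. Genes named are annexin XII, the marker lists, and the 6 most and 3 least correlated genes. Lists were matched by RefSeq symbol or synonym (42.2% of identifiers matched): 4 battery cell or tentacle epithelium, 8 nematocyte, 10 head organizer and 1 gene each for basal disk, interstitial stem cell and stress. No other annexin, no copine, ferlin, synaptotagmin or S100 gene, and no gland or nerve cell marker was matched by name. Libraries of a group differed beyond sampling noise in all 48 pairs (chi-square per degree of freedom 9.34 to 161). Deviations from group means correlated above 0.1 for every shared replicate number in 1 of 24 pairs of groups, original and ectopic tentacles of Zic4/Sp5 RNAi animals (0.209 or more). The numbers may pair those 2 groups, which the main fit did not pair. With so few libraries per group, this check cannot show that equal numbers are unpaired in the other groups. P-values measure the spread between these samples, which may be technical.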

Additional observations from a re-analysis of the deposited data

Results flagged for a closer look

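Among 12 tests of the highest and lowest library of a group of 4, 2 libraries stood apart by Dixon's criterion, and chance marks about 1 in 20 groups. In proximal segments after Zic4 RNAi, replicate 4 had 3826 CPM, with the next library at 3048 CPM, a gap of 0.913 of the group's range against a critical value of 0.829. It still lay below every mock proximal library. In mock distal segments, replicate 4 gave annexin XII 0.723% of its counts, with the next library at 0.310%, a gap of 0.839 of the range. That library had the lowest total, 2039364 counts, and its level in TMM-scaled CPM did not exceed the critical value. Its part in each comparison is given as the value without it.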

How the results depend on the processing

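Of the 5 calls, those of the mock gradient, of Zic4 RNAi in proximal segments and of the Sp5 RNAi gradient held when any 1 library was left out, with log2 values from -2.36 to -1.48, -2.13 to -1.73 and -2.71 to -2.0. The check of replicate numbers pointed to pairing only in the 2 Zic4/Sp5 RNAi groups, where the block gave -0.08 (edgeR adjusted p 0.813). With the top-10 share covariate the mock gradient was -0.35, Zic4 minus mock 0.34 in distal and 0.28 in proximal segments, Sp5 minus mock in proximal segments 0.91, Sp5 ectopic tentacles 0.43 against mock and 0.21 against original segments, and Zic4/Sp5 ectopic tentacles -0.27 against mock and 0.058 against original ones, with hywnt8 at 0.55 against mock there. With the covariate 520, 10 and 17 genes were called in the mock gradient, Zic4 proximal and Zic4/Sp5 ectopic comparisons, against 4221, 4766 and 4449. The cause was not tested. Sp5 ectopic minus mock lost its call with voom (-0.83), no filter (-0.98), the replicate block (-0.80), no TMM (-0.74) and the groups alone (-1.01), ranging from -1.12 to -0.68 without 1 library. Zic4/Sp5 ectopic minus mock lost it with the block (-0.55) and no TMM (-0.49), ranging from -0.66 to -0.44. Calls were gained by Sp5 minus mock in distal segments with DESeq2 (-1.33, range -1.58 to -0.70 without 1 library), by Sp5 minus Zic4 in proximal segments with DESeq2 (1.37), the block (1.53) and the groups alone (1.38, range 0.89 to 1.64) and by the difference of their gradients with DESeq2 (-2.22) and the groups alone (-2.25). The Zic4 interaction ranged from 1.12 to 2.10 without 1 library and was 0.69 without TMM and 0.064 with the covariate. Signs of uncalled values turned in Sp5 ectopic minus original segments with voom (0.017, range -0.22 to 0.20 without 1 library), Zic4 minus mock in distal segments (-0.82 to 0.16) and Zic4/Sp5 ectopic minus original (-0.15 to 0.0696). Group means moved beyond 1 SD without TMM in Sp5 ectopic (3176 CPM), Zic4/Sp5 original (2171 CPM) and Sp5 distal libraries (1764 CPM), and with RLE in whole mock tentacles (2638 CPM). Of the 6 most similar genes, 3 were shared with Spearman's rho, 2 with group means and 4 to 6 without 1 library. Of the 3 most unlike genes, 2 were shared with Spearman's rho and 1 with group means.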
